A study of Mus musculus with 8 samples.

Results

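The comparison described here was between tongue epithelial cells of mice in which the human papillomavirus oncogenes E6 and E7 had been switched on (group E) and of mice that carried no programme transgene (group N). Cells were kept from 2 libraries per group when they had 1000 to 5500 detected genes, at most 30000 unique molecular identifiers (UMIs, each standing for 1 captured transcript) and at most 7% of UMIs from mitochondrial genes. Kept cells also had 0 UMIs of Ptprc, the pan-leukocyte marker CD45, and at least 0.5% of their UMIs from the keratins Krt5, Krt14, Krt15, Krt13 and Krt6a together. This left 8470 cells of 19859 barcodes in the 4 libraries, of which N1 gave 3447, N2 415, E1 4055 and E2 553. All 8 libraries of the series together hold 42550 barcodes.

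Droplet-based 3′ single-cell RNA sequencing was carried out on sorted viable cells of mouse tongue epithelium, 15 days after the transgenes were induced. Group N was Krt14-CreERT/LSL-rtTA, group E added tetON_E6-E7, group Y added tetON_YAP1S127A in place of E6-E7, and group EY carried both. All groups shared the tamoxifen-activated Cre under the Krt14 promoter, which is active in basal keratinocytes, the doxycycline-dependent activator rtTA that this Cre releases, and, in the study's methods, a tetON_H2B-GFP reporter, local tamoxifen and a doxycycline diet. The animals were adult littermates. Not every basal cell need have recombined, and transcripts of the transgenes were not among the counted features, so the labels of E could not be checked on the transgene itself. The title of N2 holds a pair of animal numbers, so this library may hold pooled animals.

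E6 and E7 are the transforming proteins of high-risk papillomaviruses. E7 binds the retinoblastoma protein RB and its relatives, which otherwise hold back E2F transcription factors and with them the genes of S phase entry, and E6 directs the tumour suppressor p53 to degradation. Interferon signalling runs from receptors through the kinases JAK1 and TYK2 to factors such as STAT2 and IRF9, which act through interferon-stimulated response elements (ISREs) at many antiviral genes. Tongue epithelium renews from a basal layer of Krt5- and Krt14-positive progenitors whose daughters differentiate as they move upward.

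The kept cells of a library summed to between 8746483 and 55154619 UMIs, and the median depth per cell was 13656 UMIs for N1, 22942 for N2, 12575 for E1 and 23570 for E2. N2 and E2 were thus the smaller but deeper libraries of their groups, and Ptprc-positive cells made up 73.3% and 61.6% of their cells within the limits against 15.6% in N1 and 15.5% in E1. Few cells lay near the keratin limit, with 76, 15, 80 and 9 kept cells of N1, N2, E1 and E2 under 2 times the limit, and 18, 10, 16 and 4 otherwise passing cells between the limit and 0.5 times it. At most 5 kept barcodes were shared by any pair of the 4 libraries. Epithelial markers summed to between 24820 and 27160 CPM (UMIs scaled to a common total) in the 4 libraries, and T or NK cell markers to 6.96 and 8.003 CPM in N against 13.5 and 8.84 CPM in E. Erythroid markers summed to 164 and 681 CPM in N against 93.5 and 28.5 CPM in E, and none of their 5 genes passed the test. Gland or duct markers were highest in N2, at 1027 CPM, beside 132 CPM for N1, 143 CPM for E1 and 323 CPM for E2. The 8 tested genes of this list had a median log2 difference of -1.29, and none was called. In cells with gland genes at 0 UMIs, all 33 calls described below were kept. All 4 libraries had the male pattern of sex-linked transcripts, whereas Y2 had that of a female. The part of these differences in the results below was not tested, apart from the leave-outs given.

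Of 13555 genes tested, 32 rose in E (0.236%) and 1 fell (0.00738%) in the quasi-likelihood test of edgeR, with a threshold of 0.05 on the Benjamini-Hochberg adjusted p. At an unadjusted p under 0.05, 361 genes were higher (2.66%) and 145 lower (1.07%). Most of the genes that rose belong to the antiviral interferon response, with 21 of them in a list of interferon-stimulated genes. A pair, Zcwpw1 and Stag3, normally act in meiosis. The log2 differences of the 32 genes ran from 1.12 to 4.90 with a median of 2.65, beside a median of -0.01 over all genes tested, and in each of them both E libraries exceeded both N libraries. The calls depended on the set of libraries in the fit. Leaving out any 1 library left a group with 1 library and fewer degrees of freedom, and fewer genes were called. None of the 33 differences changed sign. Without 1 library the log2 difference ranged from 3.03 to 3.65 for Isg15 and from 4.14 to 6.72 for Rsad2.

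The interferon-stimulated response element, searched on both strands as a pair of GAAA blocks with any 2 bases between them, was found in the promoter windows of 13 of the 26 genes that rose and had a window (50%). A window spanned 250 bases before to 50 bases after a RefSeq start site, and 381 of 10327 tested genes with a window held the element (3.69%), as did 1079 of 27025 of all such genes (3.99%). A match is a description of the letters and no evidence of binding. The following stretches of the GRCm38.p6 assembly are read 5′ to 3′ on the gene's strand. They show the first match in capitals at 5 genes that rose and are described next, including the signalling factor Stat2 itself. Further matches that overlap the first in Isg15 and Bst2 are left in lower case.
Isg15 promoter, chr4:156200872-156200911, minus strand: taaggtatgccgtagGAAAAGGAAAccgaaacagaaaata
Ifit1 promoter, chr19:34640770-34640809, plus strand: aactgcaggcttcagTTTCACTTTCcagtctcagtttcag
Bst2 promoter, chr8:71537578-71537617, minus strand: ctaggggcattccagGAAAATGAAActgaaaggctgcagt
Rsad2 promoter, chr12:26456548-26456587, minus strand: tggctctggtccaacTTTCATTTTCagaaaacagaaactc
Stat2 promoter, chr10:128270261-128270300, plus strand: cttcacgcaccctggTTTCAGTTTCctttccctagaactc

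Antiviral effectors made up the largest group of genes that rose. Values in each library are CPM scaled by the trimmed mean of M-values (TMM), and where 4 values follow each other they stand for N1, N2, E1 and E2. Rsad2, which encodes the antiviral enzyme viperin (GRCm38, chromosome 12, 26442746 to 26456452, minus strand), had 2.25 and 0.477 CPM in the N libraries and 70.2 and 29.4 CPM in the E libraries. Both E libraries stood far above both N libraries, and the log2 difference was 4.90 (SE 0.62, adjusted p = 0.0329), with a mean of 49.8 ± 28.9 CPM in E (SD, n = 2 libraries, edgeR). Bst2, which encodes tetherin and holds budding virus particles at the cell surface, had 33.6, 18.0, 212 and 212 CPM. The E libraries were close to each other for Bst2 and rose by 3.02 (SE 0.31, adjusted p = 0.0245). Isg15, a ubiquitin-like modifier, had 65.5, 44.4, 651 and 451 CPM in the same order and rose by 3.32 (SE 0.40, adjusted p = 0.0306).

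RNA-binding effectors and sensors rose together with these. Ifit1, which binds RNA that lacks the host's cap methylation, had 12.0, 6.43, 110 and 76.7 CPM, and rose by 3.29 (SE 0.36, adjusted p = 0.0259). Oas2, a synthetase of the 2-5A messenger that activates RNase L, had 1.19, 0.477, 10.6 and 10.4 CPM and rose by 3.45 on the log2 scale. Groups did not overlap for either gene. The related Oas1a, Oas1g and Oasl2 rose by 2.49, 2.57 and 2.65. Ddx58, which encodes the RNA sensor RIG-I, had 14.0, 10.2, 47.6 and 46.2 CPM and rose by 1.93 (SE 0.25, adjusted p = 0.0332). Dhx58, a relative of RIG-I, rose by 2.96, and Zbp1, a sensor of left-handed nucleic acids, by 3.03. Reads of near-identical family members (Apol9a and Apol9b, Oas1a and Oas1g, Ifit3 and Ifit3b, H2-Q6 and its neighbours) may have been split or dropped between copies, so each of these values is uncertain as that of a single gene.

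Signalling components showed a split between the downstream factors and the receptors. Stat2 had 7.61, 6.67, 31.1 and 34.4 CPM and rose by 2.19 (SE 0.25, adjusted p = 0.0269). Irf9, which binds DNA together with STAT2, did not pass the test, with a log2 difference of 1.45 (adjusted p = 0.298). The amplifying factor Irf7, with 10.2, 14.3, 90.5 and 46.5 CPM, also missed it (2.51, adjusted p = 0.0785). In Irf9 and Irf7 both E libraries nevertheless lay above both N libraries. The receptor and kinase genes gave values near 0, of -0.01 for Ifnar1, 0.16 for Ifnar2, -0.10 for Ifnlr1, -0.11 for Jak1 and -0.01 for Tyk2, none of which passed the test. Of 22 tested interferon ligands, receptors and nucleic acid sensors 2 rose, Ddx58 and Zbp1, and the median was 0.22. At an unadjusted p under 0.05, 8 of the 22 were higher (36.4%), beside 2.66% of all genes tested. Usp18, the feedback inhibitor of the type I receptor, had 6.42, 3.57, 52.97 and 40.5 CPM and rose by 3.16 (adjusted p = 0.0393).

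The interferon-stimulated list held 63 genes, of which 58 were tested. Of these, 21 rose (36.2%), none fell, and 53 were higher at an unadjusted p under 0.05. Among the tested members 55 had every E library above every N library, or 94.8%, beside 15.9% of all genes tested. The median difference was 2.15 on the log2 scale, beside -0.01 over all genes. One member ran the other way. Ifi27, a mitochondrial protein of the response, had 178 and 141 CPM in N against 85.5 and 101.5 CPM in E, a log2 difference of -0.77 (SE 0.25) that did not pass the test (adjusted p = 0.849). Ifit3 was nearly absent from N, with 0.257 and 0 CPM against 24.1 and 6.54 CPM in E, and missed the threshold (adjusted p = 0.0557).

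**Figure D1:**
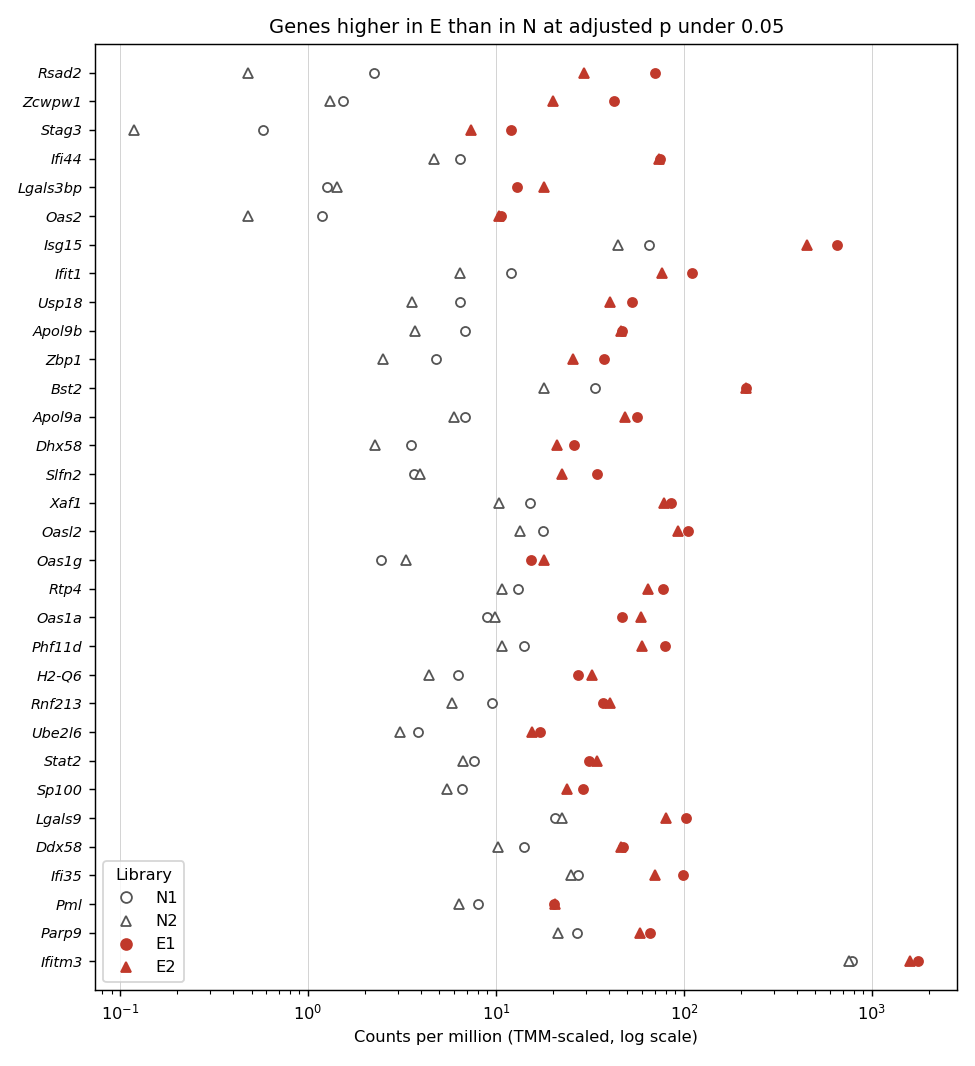
Level of the 32 genes that rose in E, in TMM-scaled CPM on a log axis, 1 row per gene. Open symbols are N1 and N2 and filled symbols E1 and E2. No row has an N library at or above an E library, from Rsad2 (2.25 and 0.477 against 70.2 and 29.4 CPM) to Ifitm3 (783 and 755 against 1761 and 1585 CPM).

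Few transcripts of interferons themselves were counted in the kept cells. Ifnb1, a type I interferon that many cell types can make, had 5 UMIs, all in 1 cell of E1. The type III interferons Ifnl2 and Ifnl3 together had 94 UMIs in 13 cells of E1, of which 45 UMIs came from 1 cell, against 2 UMIs in N1 and 0 in N2 and E2. A count of 0 allows up to 3 UMIs in a library where UMIs are independent, but those of E1 were gathered in few of its 4055 kept cells. With 553 kept cells in E2, a count of 0 therefore does not show that these ligands were absent there. The interferon-stimulated list summed to 7783 CPM in E2 and to 8176 CPM in E1 without TMM scaling. Ifnk, an interferon of keratinocytes, ran the other way, with 12 UMIs in 12 cells of N1, 1 UMI in E2 and 0 in N2 and E1. Ifng, the interferon of T and NK cells, had between 3 and 5 UMIs in the kept cells of each library. In the Ptprc-positive cells of the same libraries the UMIs of Ifng numbered 332 and 3117 in N and 777 and 2562 in E, highest in N2 and E2, the libraries with the larger shares of immune cells.

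Of 22 tested genes of antigen presentation on MHC class I, which shows peptides to CD8 T cells, 1 rose by the adjusted p. At an unadjusted p under 0.05, 15 members were higher (68.2%), beside 2.66% of all genes tested, and 17 had both E libraries above both N libraries (77.3%), beside 15.9% of all genes, with a median log2 difference of 0.98. H2-Q6, a non-classical class I molecule on chromosome 17 (35424850 to 35430055, plus strand), had 6.30, 4.41, 27.3 and 32.4 CPM and rose by 2.44 (SE 0.27, adjusted p = 0.0259). The classical heavy chain H2-K1 had 668 and 430 CPM in N against 1007 and 1206 in E (log2 difference 1.01, adjusted p = 0.334), and the light chain B2m 561 and 381 against 811 and 1213 CPM (1.10, adjusted p = 0.545). The groups did not overlap for either gene, but the differences did not pass the test. The galectin gene Lgals9 also rose, with 20.6, 22.5, 103 and 80.5 CPM and a log2 difference of 2.09 (SE 0.17, adjusted p = 0.0172).

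Higher counts of interferon-stimulated transcripts were found in most E cells. After every cell was thinned to 2000 UMIs, to remove differences in depth, 59.9% of N1 cells (95% exact binomial interval 58.2 to 61.5) and 47.0% of N2 cells (42.1 to 51.9) had 3 or more UMIs of the interferon-stimulated list. The share was 95.4% in E1 (94.7 to 96.0) and 94.9% in E2 (92.8 to 96.6). Median counts of the list per cell were 3 in N1, 2 in N2 and 14 in both E1 and E2. The 10th percentile of E cells, at 4 UMIs in both libraries, was thus above the median of N cells. Without thinning the shares were 99.0, 94.2, 99.9 and 99.5% in the same order, close to the ceiling. In Ptprc-positive cells the thinned shares were 89.3, 92.0, 99.2 and 97.5%. These intervals cover counting error only, and with 2 libraries per group the smallest p an exact permutation test can give is above 0.05, so no test was made of shares.

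**Figure D2:**
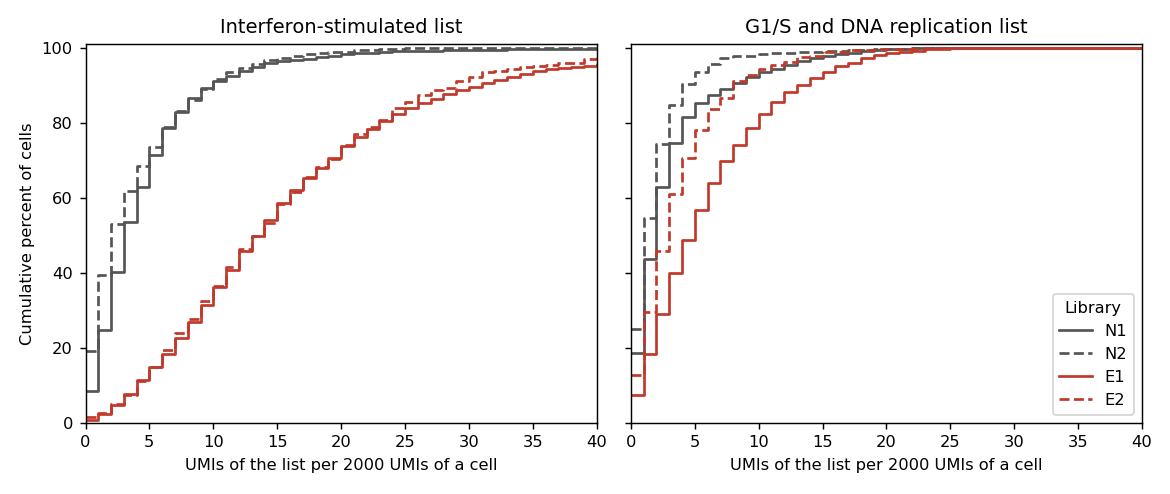
Cumulative percent of cells (y) against UMIs of a list per 2000 UMIs of a cell (x), for the interferon-stimulated list (left) and the G1/S and DNA replication list (right), 1 line per library. On the left E1 and E2 run together to the right of N1 and N2, with medians of 14 against 3 and 2 UMIs, and on the right E2 lies between N1 and E1.

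A pair of meiotic genes, Zcwpw1 and Stag3, also rose. Zcwpw1 reads the double histone methylation that marks meiotic recombination sites, and Stag3 and Smc1b are subunits of the meiotic form of cohesin, the ring that holds sister chromatids together. Zcwpw1 had 1.54, 1.31, 42.2 and 20 CPM, so that E averaged 31.1 ± 15.7 CPM (SD, n = 2 libraries), and rose by 4.41 (SE 0.45, adjusted p = 0.0245, edgeR). Stag3 (chromosome 5, 138280240 to 138312393, plus strand) had 0.573, 0.119, 12.0 and 7.33 CPM and also rose by 4.41 (SE 0.51, adjusted p = 0.0269). In both genes E1 stood above E2, and E2 well above both N libraries.

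Smc1b (chromosome 15, 85064689 to 85131964, minus strand) was at the floor of N, with 7 UMIs in N1 and 0 in N2 against 615 in E1 and 81 in E2. Relative to total UMIs this was a ratio of 86.6 between the groups with a counting interval of 41.8 to 216, but the difference missed the threshold (adjusted p = 0.0816). The RNA-binding germline gene Rbm46, which was named after its values were seen, had 0 UMIs in both N libraries, 705 in E1 and 66 in E2. Against a floor of 3 counts over the N group it was at least 224-fold higher, without passing the test (adjusted p = 0.123). Syce2, part of the central element of the synaptonemal complex, was not silent in N, with 12.1 and 6.79 CPM against 45.8 and 26.8 CPM in E (log2 difference 1.90, adjusted p = 0.685).

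Of 63 genes on the meiotic and germline list, 60 were among the counted features and 20 had enough UMIs to be tested. Among these 20, 2 rose (10%) and none fell, where 0.236% of all genes tested rose. The groups were separate, with E higher, in 14 of them (70%), a pattern found in 15.9% of all genes. At an unadjusted p under 0.05, 9 of the 20 were higher (45%), beside 2.66% of all genes tested. The median log2 difference of the 20 was 0.69. The members that were not tested had few or no UMIs in all 4 libraries, among them Dazl, Mael, Sohlh2 and Rnf212. Higher values in E were thus seen in a part of the list only. A member that passed the count filter through its level in E alone had to differ, so these counts and the median describe the tested members only.

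**Figure D3:**
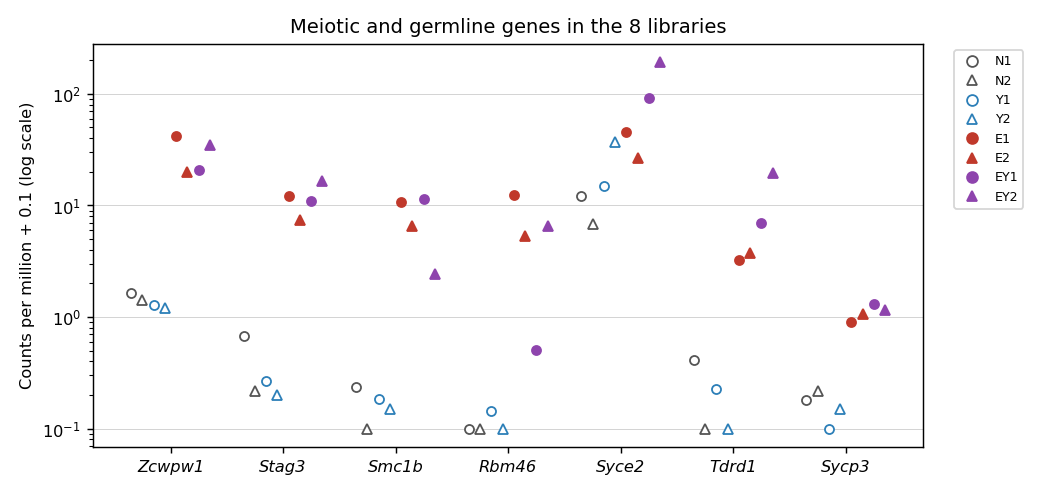
CPM plus 0.1 on a log axis for 7 meiotic or germline genes in the 8 libraries, 1 point per library, by group. In Zcwpw1 and Stag3 the 4 libraries with E6-E7 (E and EY) lie between 7.33 and 42.2 CPM and the 4 without (N and Y) at or under 1.54 CPM.

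Transcripts of these genes were found in a minority of E cells. In cells thinned to 2000 UMIs, Zcwpw1 was seen in 0.348% of N1, 0.241% of N2, 6.44% of E1 and 3.98% of E2 cells. Ptprc-positive cells had shares of 0.929, 1.40, 2.22 and 0.966%, above the kept cells in N and below them in E. Those with keratins under the limit had 3.84 and 6.23 CPM of Zcwpw1 in N without TMM scaling, so they may hold the transcript themselves and do not give a background level. Unthinned shares in kept cells were 1.86, 2.65, 32.6 and 22.97%, so the share depends on depth. At least 1 UMI of Zcwpw1, Stag3, Smc1b or Rbm46 was present in 506 cells of E1 (12.5%) and 47 of E2 (8.499%), against 19 of N1 (0.551%) and 1 of N2 (0.241%). In E1 these cells had a mean of 15.9 UMIs of the interferon-stimulated list against 16.6 in the other E1 cells, and 9.41 UMIs of the DNA replication list against 5.52. In E2 the corresponding means were 12.5 against 15.9 and 6.68 against 3.45 UMIs. The mean of the mitosis list was higher in these cells as well, at 11.5 against 8.33 UMIs in E1 and 10.1 against 4.96 in E2. The 19 such cells of N1 had means of 5.21 against 3.03 replication UMIs and 16.5 against 7.62 mitosis UMIs, so higher cycle counts in cells with a germline UMI were not particular to E. Median interferon-stimulated counts were 14 against 13 UMIs in E1 and 10 against 14 in E2.

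DNA replication genes, the targets through which E2F drives S phase, had positive differences in E without any one passing the test. Of 56 tested members of the G1/S and DNA replication list, edgeR called 0 at the adjusted threshold and DESeq2 7. At an unadjusted p under 0.05, 19 were higher (33.9%), beside 2.66% of all genes tested. All 56 differences were above 0, and the median was 0.85 on the log2 scale. Both E libraries exceeded both N libraries in 29 (51.8%), beside 15.9% of all genes tested. Mcm2, a subunit of the helicase that opens replication origins, had 12.2, 5.72, 38.6 and 25.5 CPM, a log2 difference of 1.79 (SE 0.43, adjusted p = 0.393). The related Mcm6 had 26.1, 15.01, 86.2 and 42.1 CPM (1.63, adjusted p = 0.634). Pcna, the sliding clamp of DNA polymerase, had 82.9, 57.8, 136 and 88.5 CPM, so that E2 was only just above N1. Without E1 the median of the list was 0.30 with 41 of 56 members above 0.

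An E2F motif, searched as TTTCCCGC, TTTGGCGC, TTTCGCGC or TTTGCCGC on both strands, was found in windows of 20 of 43 DNA replication genes (46.5%), 3 of 45 mitosis genes (6.67%) and 4.69% of all tested genes with a window. None of the 26 genes that rose held it, and none of the 43 DNA replication genes held the ISRE. The stretches below are shown because the same motif, in capitals, stood in a replication gene and in Rbm46, the germline gene with no UMI in N, which did not pass the test. Capitals mark the first match, and in Mcm6 a further match that overlaps it is left in lower case. Among the meiotic and germline genes with a window 3 of 16 held the E2F motif (18.8%), and the genes called, Zcwpw1 and Stag3, did not. The window of Zcwpw1 held an ISRE and that of Stag3 the E-box CACGTG. This E-box was in 6 of the 16 (37.5%), beside 11.7% of all tested genes with a window. In both Zcwpw1 and Stag3 the stretch around the match overlapped an annotated exon.
Mcm6 promoter, chr1:128359792-128359831, minus strand: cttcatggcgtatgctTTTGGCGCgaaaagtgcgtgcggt
Rbm46 promoter, chr3:82876661-82876700, minus strand: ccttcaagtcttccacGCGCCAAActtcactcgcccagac

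Mitotic genes stayed near 0 over all kept cells. Of 52 tested members of the G2/M and mitosis list none passed by edgeR or by DESeq2, none had an unadjusted p under 0.05 in either direction, and the median was 0.07. Mki67, present in all cycling phases, had 194, 110, 198 and 90.3 CPM, so the groups overlapped. At 2000 UMIs per cell, 37.0% of N1 and 25.5% of N2 cells had 3 or more UMIs of the replication list against 70.9% of E1 and 54.2% of E2 cells. For the mitosis list the shares were 48.5, 45.3, 59.5 and 49.0%, and for Mki67 19.3, 13.0, 19.6 and 11.9%. The shares of Mki67-positive cells in E thus lay on both sides of those in N. In cells without a UMI of 8 cycling genes, Mcm2 had 6.79 and 6.12 CPM in N against 28.7 and 17.4 in E and passed the test (1.84, adjusted p = 0.0436), and 3 replication genes were called.

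The differences in the replication and mitosis lists were both larger in differentiating than in basal cells, a comparison that was not tested. Basal cells, with more UMIs of Krt5, Krt14 and Krt15 than of Krt13, Krt4 and Krt76, made up 87.3, 92.5, 89.0 and 90.8% of the kept cells of N1, N2, E1 and E2. Among the 438, 31, 445 and 51 differentiating cells, the median log2 difference of the replication list was 2.22, against 0.69 in basal cells. In differentiating cells Mcm2 had 5.67, 2.96, 35.0 and 30.5 CPM, close in E to its level over all kept cells. The share of differentiating cells with 3 or more replication UMIs was 13.9 and 9.68% in N against 65.5 and 43.1% in E, whereas in basal cells it was 40.4, 26.8, 71.6 and 55.4%. The mitosis list had a median of 0.86 in differentiating cells against -0.02 in basal cells. The share of differentiating cells with 3 or more mitosis UMIs was 34.9 and 32.3% in N against 59.7 and 60.8% in E, beside 50.5, 46.4, 59.5 and 47.8% of basal cells. No gene of either list passed the test in differentiating cells, and N2 contributed only 31 cells.

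Of 27 tested RB family, E2F, cyclin and CDK inhibitor genes none passed by edgeR and 1 rose by DESeq2, with a median of 0.28. At an unadjusted p under 0.05, 4 were higher (14.8%) and 2 lower, beside 2.66% and 1.07% of all genes tested. The S phase cyclin Ccne2 had 5.49, 2.74, 21.1 and 7.49 CPM (log2 difference 1.75, adjusted p = 1). Cyclin D1 (Ccnd1), which acts upstream of RB, had 204 and 226 CPM in N against 125 and 130 CPM in E (-0.75, adjusted p = 1), and its kinase Cdk6 had 26.7 and 30.4 against 17.1 and 11.8 CPM (-0.97, adjusted p = 1). The CDK inhibitor Cdkn1c ran the other way, with 5.25 and 6.08 CPM in N against 26.3 and 12.8 CPM in E (1.81, adjusted p = 0.381). Rb1 itself had a difference of 0.25 and its relative Rbl1 of 0.61. Cdkn2a, whose product p16 is a clinical marker of papillomavirus-driven tumours, had 9, 3, 23 and 2 UMIs and was too low to be tested.

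Targets of p53 showed no shared direction. Of 34 tested members none passed by edgeR or DESeq2, none had an unadjusted p under 0.05, and the median was -0.05. Cdkn1a, which encodes the cell cycle inhibitor p21, had 223, 161, 237 and 99.7 CPM, so that the E libraries lay on both sides of the N libraries (log2 difference -0.19, 95% interval -1.04 to 0.67). Mdm2, the ubiquitin ligase of p53, had a difference of -0.10, and Trp53 of 0.14. The interval for Cdkn1a leaves room for a halving as well as for an increase.

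**Figure D4:**
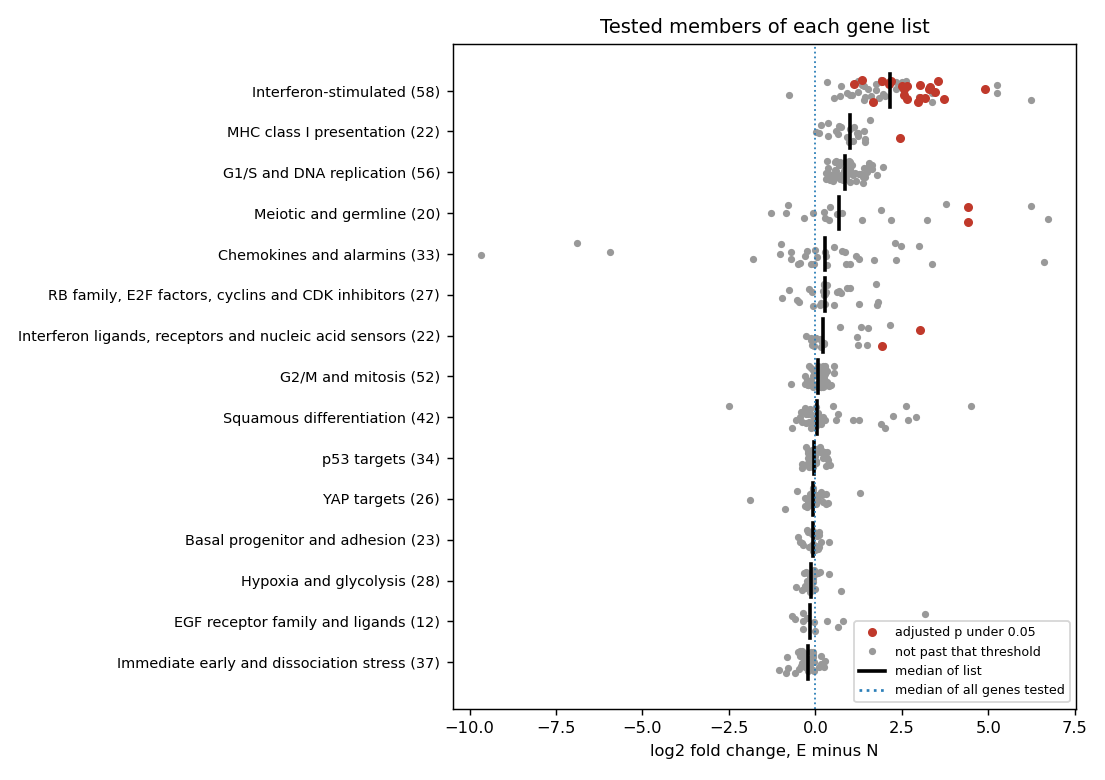
Log2 difference E minus N of every tested member of each gene list, 1 point per gene, with called genes in red, list medians as black bars and the median of all genes as a dotted line. The interferon-stimulated list has a median of 2.15, MHC class I 0.98, DNA replication 0.85 and meiotic genes 0.69, and the mitosis and p53 lists lie at 0.07 and -0.05.

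Lists that describe the state of the epithelium had medians near 0. Of 23 basal progenitor and adhesion genes none passed by edgeR or DESeq2, 0 were higher and 1 lower at an unadjusted p under 0.05, and the median was -0.07. The stem cell factors Trp63 and Sox2 had differences of -0.24 and 0.11, and the basal integrin Itga6 of -0.08. Of 42 squamous differentiation genes edgeR called none and DESeq2 1 in each direction, with a median of 0.03. At an unadjusted p under 0.05, 5 were higher (11.9%) and 2 lower, beside 2.66% and 1.07% of all genes tested. A member with a negative difference was Krt76, a suprabasal oral keratin that also enters the split into basal and differentiating cells. It had 14.9 and 16.3 CPM in N against 2.14 and 3.51 in E (-2.50, adjusted p = 0.243). YAP targets, 26 in number, had a median of -0.07 with none called by either tool and 1 lower at an unadjusted p under 0.05, and Yap1 itself had a difference of 0.02.

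EGF receptor family members and ligands (12 tested, median -0.15) had no call by edgeR or DESeq2, with 1 higher at an unadjusted p under 0.05. Hypoxia and glycolysis genes (28 tested, median -0.12) had no call by edgeR or DESeq2 and no unadjusted p under 0.05, and 4 of the 28 differences were above 0. Immediate early and dissociation stress genes (37 tested, median -0.23) had no call by either tool and 1 gene lower at an unadjusted p under 0.05. Of these 37, 5 had a difference above 0, beside 6640 of 13550 tested genes without the keratins of the cell rule. This lean of both lists to lower values in E was not tested. Among 33 chemokines and alarmins edgeR called none and DESeq2 1 higher and 3 lower. At an unadjusted p under 0.05, 3 were higher (9.09%) and 4 lower, beside 2.66% and 1.07% of all genes tested. Cxcl10, the interferon-induced attractant of CXCR3-positive T cells, had 27.6 and 2.03 CPM in N against 251 and 72.0 CPM in E (3.36, SE 1.10, adjusted p = 0.913). Cxcl5, an attractant of neutrophils, had 13.4 and 81.8 CPM in N against 0.470 and 0.159 CPM in E (-6.90, SE 1.64, adjusted p = 0.393). The groups did not overlap in these chemokines, but the spread between libraries of a group was several-fold and neither passed the test.

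The gene that fell was 2610507I01Rik, a transcript of unassigned function on chromosome 11 (59199836 to 59202385, minus strand), which lay under the 5 CPM set for the genes chosen by size and was named after its values were seen. It had 125 UMIs in N1 and 14 in N2 against 2 in E1 and 0 in E2, or 2.47, 1.67, 0.035 and 0 CPM, and fell by 6.04 (log2, SE 0.65, adjusted p = 0.0259). In Y it had 1.95 and 2.26 CPM and in EY 1.22 and 1.76 CPM, so the low level in E was not seen in the other libraries with E6-E7.

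The same transgene difference was available in mice that also expressed active YAP1, as EY against Y, from 4 libraries that entered the test of E against N through the shared estimate of spread and not through the group means. EY1 held only 170 kept cells, Y1 1289, Y2 1001 and EY2 2027. Neutrophil markers in the kept cells summed to 12.3 and 2.03 CPM in Y against 207 and 46.1 CPM in EY, and monocyte or macrophage markers to 44.0 and 27.7 against 179 and 19.7 CPM, and their part in these results was not tested. All 32 genes that rose in E had a positive difference in EY against Y, and both EY libraries lay above both Y libraries in 30 of them, where 21.9% of all genes did so. At an unadjusted p under 0.05, 29 of the 32 were higher in EY, beside 1364 of all genes tested (10.1%). Over all genes edgeR called 3 higher in EY (0.0221%), of which 2 were Zcwpw1 (4.63, adjusted p = 0.0347) and Stag3 (6.64, adjusted p = 0.0324). Zcwpw1 had 1.19 and 1.11 CPM in Y against 20.7 and 34.6 in EY, and Stag3 0.170 and 0.101 against 11.0 and 16.5 CPM. Smc1b had 0.085 and 0.050 CPM in Y against 11.4 and 2.35 CPM in EY.

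The interferon-stimulated genes differed less between EY and Y than between E and N. The median over the 58 tested members of the list was 1.20 in EY against Y beside 2.15 in E against N, and over the 32 genes that rose it was 1.28 beside 2.65, with a smaller difference in EY against Y in 30 of the 32. Isg15 had 130 and 275 CPM in Y against 479 and 578 CPM in EY, so that the Y libraries lay above the N libraries (65.5 and 44.4 CPM) while EY lay near E. In the test of the difference between both contrasts edgeR called 0 of 13555 genes (0%) and DESeq2 89. By edgeR 1562 genes (11.5%) had an unadjusted p under 0.05, among them 28 of the 33 genes called in E against N. At the adjusted threshold a gene-level difference in size was therefore not shown for any interferon-stimulated gene by the edgeR test. Since the 32 genes were chosen by their difference in E against N, a smaller value in the other contrast is a description only.

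**Figure D5:**
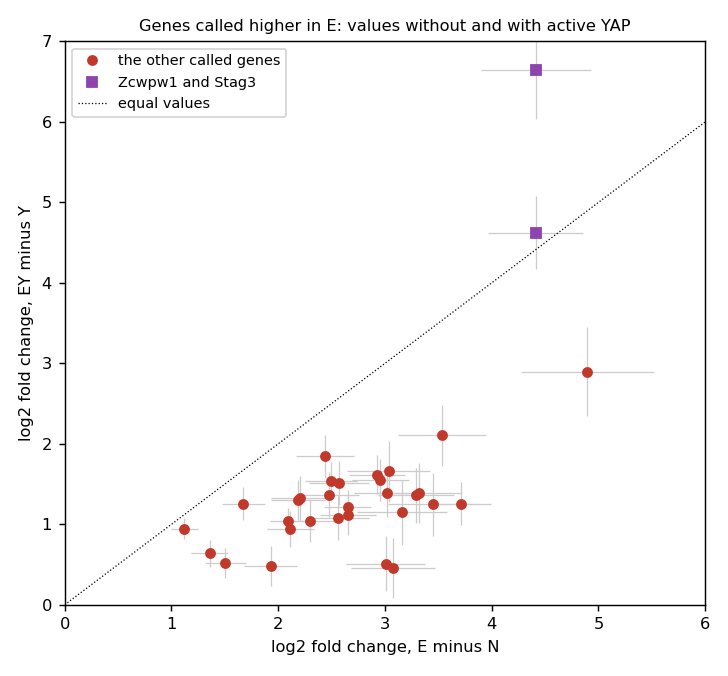
Log2 difference E minus N (x) against EY minus Y (y) for the 32 genes that rose in E, with bars of 1 SE and the line of equal difference. All of them lie above 0 on both axes, 30 below the line, and Zcwpw1 (4.41 and 4.63) and Stag3 (4.41 and 6.64) lie above it.

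Restricting the cells changed the calls more than the directions. In basal cells alone 28 of the 33 calls were kept, with Isg15 at 71.2, 41.7, 668 and 433 CPM (3.28, adjusted p = 0.0469). In differentiating cells Isg15 had 37.6, 104, 528 and 642 CPM (3.19) and Zcwpw1 0.740, 0, 50.1 and 27.9 CPM (5.80, adjusted p = 0.0651), and none of the calls were kept at those cell numbers. Where cells with a UMI of any of 13 immune genes were left out as well, 24 of the 33 calls were kept, 32 genes were called in all, and the median of the interferon-stimulated list was 2.30. With only the 4 libraries of N and E in the fit, the calls kept were those of Ifi44 and Apol9a.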

How the data were processed

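Sorted viable cells of mouse tongue epithelium were profiled with 10x 3′ chemistry, and the deposited gene by cell matrices hold UMI counts that the authors made with Cell Ranger on mm10, unnormalized. UMIs of the kept cells were summed per library and tested with edgeR 4.0.16 (filterByExpr, TMM factors 0.953 to 1.04, quasi-likelihood F test, two-sided) in R 4.3.3, with 1 mean per group (N, E, Y, EY) and a spread shared by all 8 libraries, and Benjamini-Hochberg adjustment over 13555 genes. Values from DESeq2 1.42.0 were an alternative. CPM are TMM-scaled unless said otherwise, and SE is the difference divided by the root of F. Shares of cells used cells thinned to 2000 UMIs, leaving out 3 shallower cells. No doublets were removed, and Scrublet, which marked under 0.5% of E1, was not taken to have worked. The scripts were tested on simulated data.

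Genes were named when called, without overlap and at 5 CPM or more in a group (the 24 largest), when on a panel of 24, or when a called list member. The cell rule, panel and lists were chosen with earlier results of these data known. Per the study's methods each genotype had 2 mice, so that a library would stand for 1 mouse, but the title of N2 holds a pair of animal numbers. In sums over cells, fewer expressing cells and less RNA per cell cannot be told apart.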

Additional observations from a re-analysis of the deposited data

Results flagged for a closer look

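Nrg1, a ligand of the EGF receptor family, ran in opposite directions in the contrasts of the transgene. It had 31.6 and 32.2 CPM in N against 23.6 and 16.2 CPM in E, a log2 difference of -0.67, and 29.4 and 42.8 CPM in Y against 49.2 and 89.2 CPM in EY, a difference of 0.97. The contrasts differed by 1.63 on the log2 scale, with every library of E below N and every library of EY above Y, and edgeR's test of this difference did not pass (adjusted p = 0.349).

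The Ptprc-positive cells, which no comparison used, also had more interferon-stimulated transcripts in E. The list summed to 15170 CPM of their UMIs in E1 and 11310 CPM in E2, against 4207 CPM in N1 and 5142 CPM in N2, without TMM scaling. With keratins under the limit as well, the sums were 17560 and 11370 CPM in E against 4861 and 5196 CPM in N. No test was made of these sums.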

How the results depend on the processing

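The 33 genes called in E against N kept their sign under all 24 alternatives that gave them a value. Their count was 131 with DESeq2, which kept all 33, 367 with no low-count filter, 52 with the epithelial share as a covariate, 66 without upper limits on genes and UMIs, 1 in differentiating cells only and 2 with the 4 libraries of N and E only. Leaving out 1 library gave 0 to 29 calls, with 0 without N1, N2 or EY1, 6 without E1, 3 without E2, 28 without Y1, 29 without Y2 and 23 without EY2. For EY against Y edgeR called 6 genes, DESeq2 873, no low-count filter 2117, the covariate 417, no upper limits 669, a minimum of 200 genes 163, a keratin share of 2% 1046, immune genes at 0 144, gland genes at 0 179, basal cells 11, differentiating cells 0, cells without cycle UMIs 23, at most 350 cells per library 0, and leaving out 1 library 0 to 1456, the highest without EY1. For the interaction of E6-E7 and YAP the count of 0 became 89, 672, 1, 20 and 1 with DESeq2, no low-count filter, the covariate, no upper limits and cells without cycle UMIs, and 0 to 30 without 1 library. With cells thinned to 4000 in place of 2000 UMIs, the mean share of E minus that of N went from 41.7 to 22.6 percentage points for 3 interferon-stimulated UMIs, from 39.5 to 50.3 for Isg15 and to 9.68 for Zcwpw1. The causes were not tested.

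Some uncalled genes changed sign. The difference was 0.0194 for Mdm2 in E against N with at most 350 cells, 0.0299 for Itga6 in E against N in cells without cycle UMIs and -0.13 for Ereg in E against N without upper limits, down from 3.17 on few UMIs. For Yap1 in E against N it was -0.10 without upper limits, -0.0712 at a keratin share of 2%, -0.22 in differentiating cells and -0.0514 with at most 350 cells, and for Mki67 in E against N it was 0.0477 at a keratin share of 2%, 1.02 in differentiating cells and 0.0945 with at most 350 cells. Without 1 library the ranges were -0.95 to 0.31 for Cdkn1a, -0.26 to 0.11 for Mdm2, -0.59 to 0.19 for Trp63, -0.0424 to 0.30 for Sox2, -0.28 to 0.17 for Itga6, -0.26 to 0.28 for Yap1 and -0.76 to 0.41 for Mki67. No paired analysis was possible because the titles carry animal numbers and no replicate number shared between groups. Depth limits N2, with 415 kept cells, and EY1, with 170.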
